A study of Mus musculus with 12 samples.

Results

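A list of 10 genes that set or mark the rate of fat synthesis in liver was followed across 12 mouse livers. The genes are the transcription factor genes Srebf1, Mlxipl and Nr1h3, the genes Scap, Insig1 and Insig2 for the proteins that hold or release SREBP, and Thrsp, Mid1ip1, Pnpla3 and Txnip, which are described as downstream of these factors. The list holds 10 of the 26304 genes with at least 1 read in any liver, and all 10 were among the 11968 genes that passed the expression filter of the deposited count table. C57BL/6J mice, an inbred laboratory strain, were 8 to 10 weeks old when the diets began. Females and males ate either chow or chow with simvastatin, a blocker of HMG-CoA reductase in cholesterol synthesis, for 4 weeks. This gave 4 groups of 3 livers (female chow, female statin, male chow and male statin), and the labels name no engineered allele. Simvastatin was given at 0.1 g per kg, which the sample labels refer to body weight and the study's methods to the weight of the food. The feeding state of the mice when liver was taken is not given in the sources used here.

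SREBP-1, the product of Srebf1, is made as a precursor in the membrane of the endoplasmic reticulum, where SCAP binds it and INSIG proteins hold the pair back. When sterols are low, SCAP carries SREBP to the Golgi, proteases release its active part, and genes of fatty acid and cholesterol synthesis are switched on. ChREBP, the product of Mlxipl, answers to sugar metabolites, and LXR alpha, the product of Nr1h3, answers to oxysterols and can switch on Srebf1 itself. In liver the mRNA of the SREBP-1c form follows insulin and feeding, while the release of the active protein from the membrane is a further step that mRNA does not show. The reads were summed per gene, so SREBP-1a and SREBP-1c, or the alpha and beta forms of ChREBP, were not separated.

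Levels below are TMM-normalized CPM, which are counts scaled to a fixed library total, with that total adjusted by a trimmed mean of log ratios between livers. Fold changes and p-values are from edgeR's quasi-likelihood test in 1 fit of all 12 livers, adjusted over the 11968 genes, and a gene was called at an adjusted p below 0.05. Depth was between 46066381 and 60419223 counts per liver, so 3 counts were worth between 0.0497 and 0.0651 CPM. All 5 hepatocyte markers were present in every liver (summed level 72013 to 148682 CPM), and the 4 adipocyte markers summed to at most 2.53 CPM, with Adipoq, Cfd, Lep and Plin1 each at 0 in at least 1 liver. Marker sums of several cell types did not overlap between groups, and they are given after the values of the 10 genes as a list. In bulk liver, fewer cells of a type and less RNA per cell cannot be told apart. Livers also differed in a trend with transcript length: the median log2 deviation of the 1528 genes with the longest transcripts minus that of the 1528 with the shortest ran from -0.44 in female statin replicate 1 to 0.45 in male statin replicate 1.

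On chow, 4 of the 10 genes were called higher in females than in males, namely Pnpla3, Thrsp, Txnip and Insig1, while none was called lower. Of all genes tested, 10.4% were called in this comparison and 5.96% were called higher in females. Under statin, Txnip was the 1 gene of the 10 still called between the sexes, higher in females, against 6.28% of all genes called and 4.38% called higher. Statin against chow gave 0 calls among the 10 in females, where 0.100% of all genes were called, and 0 in males, where the share of all genes was 0. DESeq2, which called 2.26% of all genes in females and 0.0334% in males, and limma, which called 0.109% and 0, also called 0 of the 10 in either sex. At an unadjusted p below 0.05, 3 of the 10 were lower in statin-fed females (Mlxipl, Mid1ip1 and Thrsp), against 10.5% of all genes and 4.56% of all genes in that direction, and 0 of the 10 passed in males, against 1.96%.

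**Figure D1:**
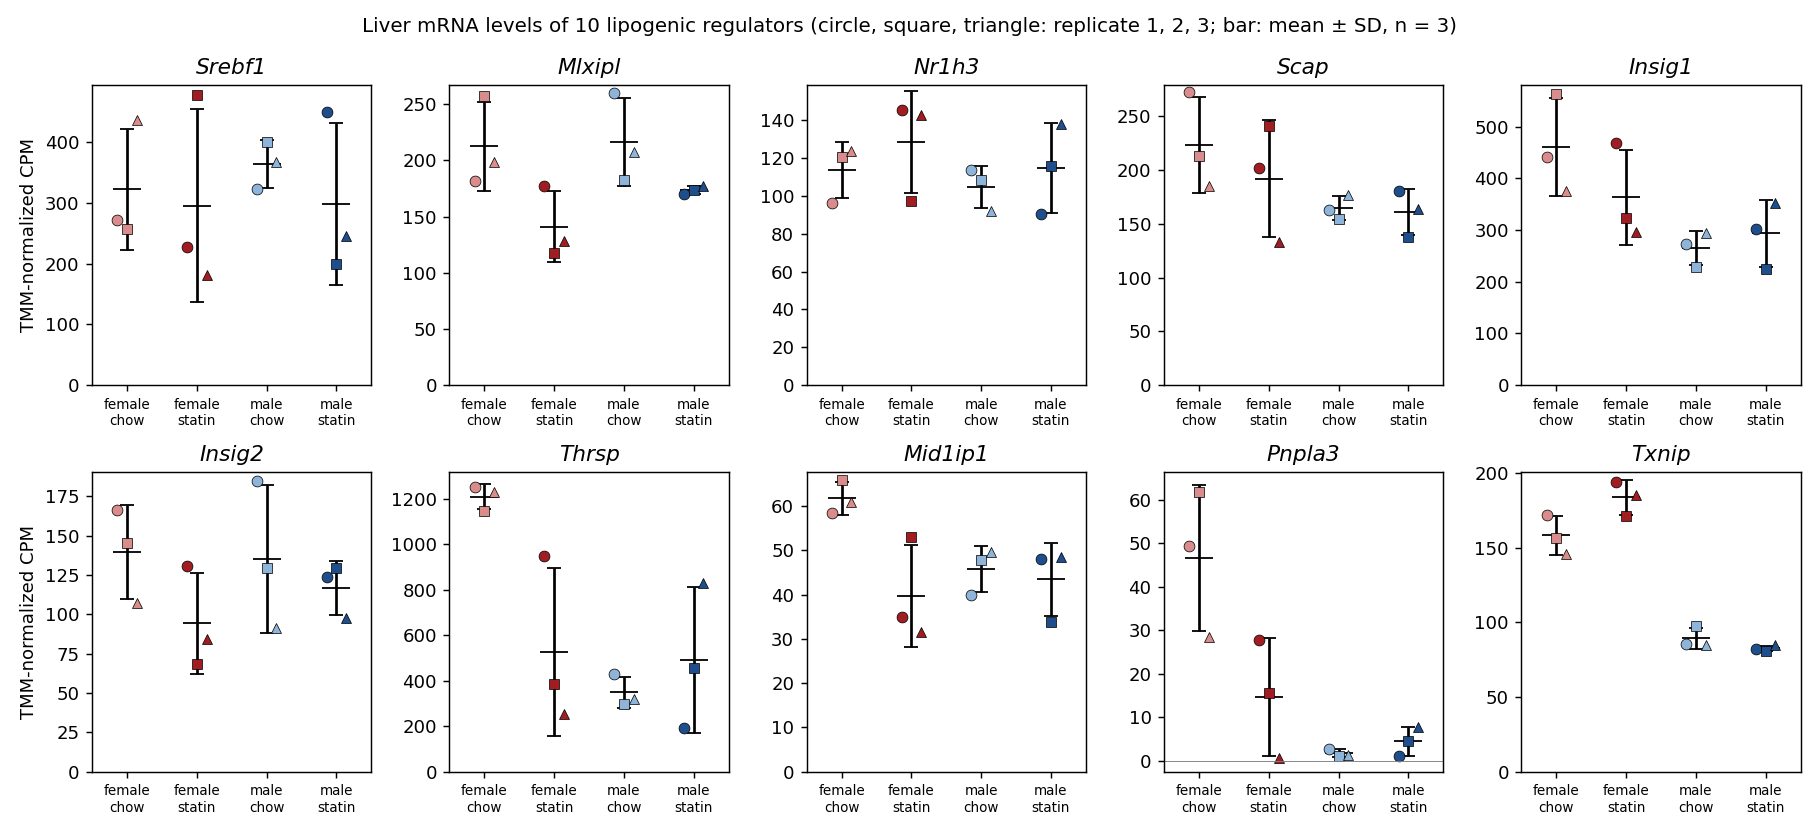
TMM-normalized CPM of the 10 genes in each of the 12 livers, by group. Circles, squares and triangles are replicates 1, 2 and 3, and the bars are the mean and SD of 3 livers. Txnip separated the sexes in both diets, Thrsp and Pnpla3 were highest in the 3 female chow livers, and Srebf1 overlapped between all groups.

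For the 4 genes called between the sexes on chow, the promoter (300 bases around the start site, most of them upstream, from RefSeq, build GRCm38.p6) is printed below where the gene is described, 5′ to 3′ on the gene's own strand. Capitals mark matches to 4 motifs that were searched on both strands. These were the SREBP element TCACNCCAC, the E-box CACGTG, a loose form of the carbohydrate response element (CACNNG repeated with 5 bases between the copies), to which ChREBP binds with its partner MLX, and CCAAT, the core letters bound by NF-Y, which acts beside SREBP at many promoters. A CCAAT on the other strand reads as ATTGG, and no marked matches overlapped in the 4 promoters. Among 32851 such windows of 27025 mouse genes, 1.24% held the SREBP element, 7.15% the E-box, 1.09% the carbohydrate response element and 37.4% a CCAAT. All 10 genes had a window, 17 in all, because several genes have more than 1 start site.

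Srebf1 lies on chromosome 11 (GRCm38, 60199089 to 60222581, minus strand), and it varied more between livers of a group than between groups. The 3 female chow livers held 273, 258 and 438 CPM, and the female statin livers 227, 478 and 182 CPM. The male chow livers held 323, 401 and 368 CPM, and the male statin livers 451, 199 and 245 CPM. In all 4 comparisons the groups overlapped: female statin replicate 2 and male statin replicate 1 were above every chow liver of either sex, and the other 4 statin livers were below every chow liver. For females, the log2 fold change of statin over chow was -0.13 ± 0.37 (SE), with a 95% interval of -0.93 to 0.68. For males it was -0.29 ± 0.37, with an interval of -1.10 to 0.52. The longest transcript of Srebf1, at 4299 bases, was shorter than the 5497 bases from which transcripts counted as longest in the length trend. Female statin replicate 2 and male statin replicate 1 were also the livers with the strongest trend toward long transcripts (0.42 and 0.45). The trend was -0.09 in female chow replicate 3 and -0.07 in female statin replicate 3, which held the next highest and the lowest Srebf1. With that trend as a covariate, an alternative chosen after seeing the data, the values were -0.24 for females and -0.33 for males, with adjusted p-values of 0.663 and 0.804. The part of the trend in the values without it was not tested further. Between the sexes the values were -0.17 on chow and -0.01 under statin. Rai1, whose exons overlap those of Srebf1 on the other strand, held 11.1 to 16.6 CPM, and the strand setting of the authors' counting is not given in the sources used here.

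**Figure D2:**
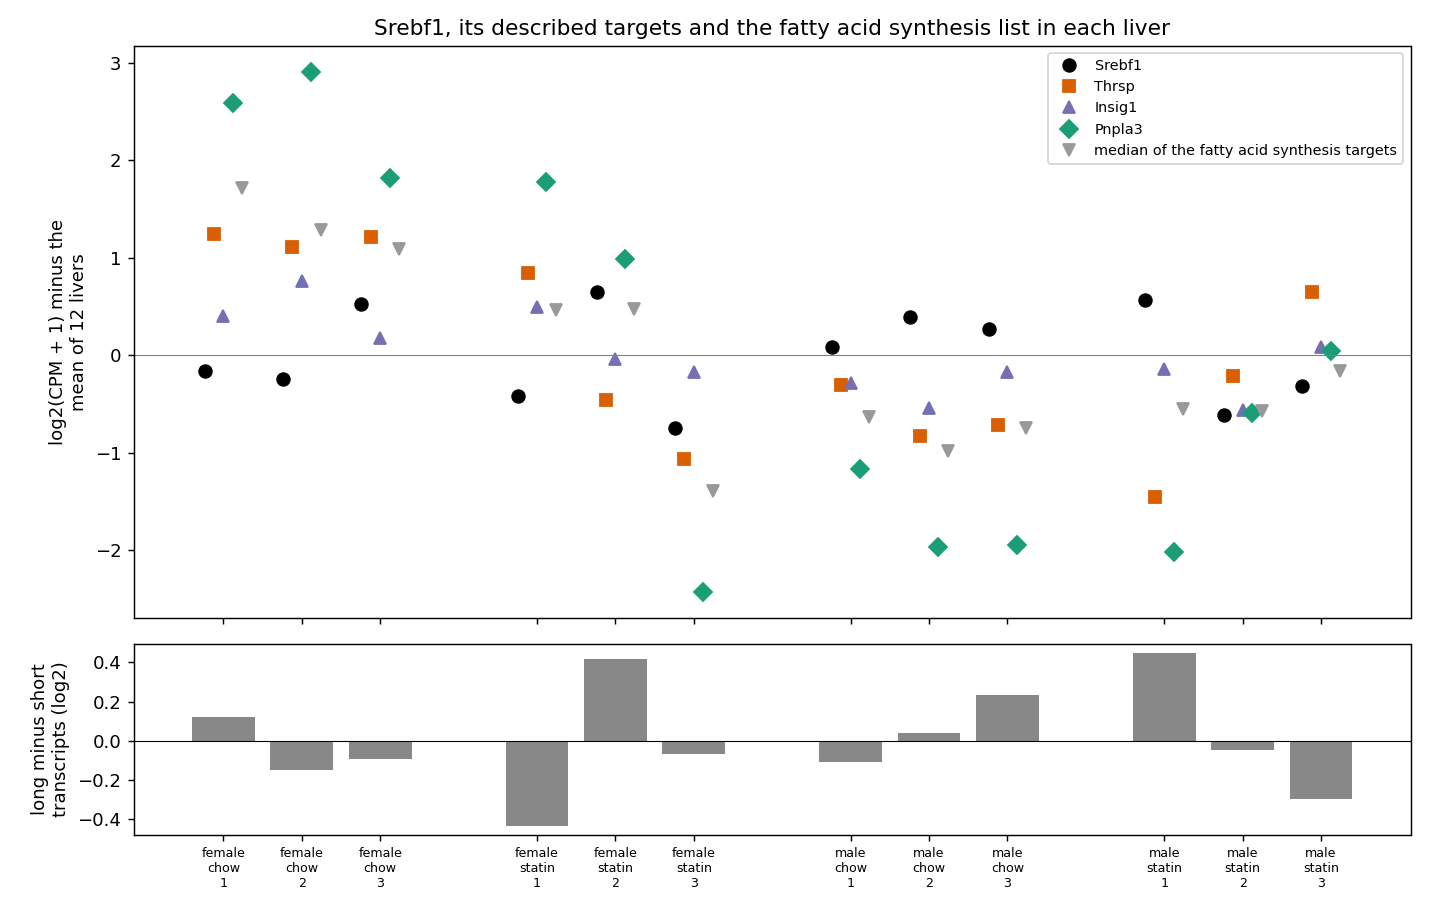
Upper panel, log2(CPM + 1) minus its mean over the 12 livers for Srebf1, Thrsp, Insig1, Pnpla3 and the median of 13 fatty acid synthesis genes in each liver. Lower panel, the length trend of each liver (log2, longest minus shortest transcripts). Srebf1 was highest in female statin replicate 2 and male statin replicate 1, where the length trend was also highest, whereas Thrsp and Pnpla3 were highest in the 3 female chow livers. Female chow replicate 3, with the next highest Srebf1, had a length trend of -0.09.

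Mlxipl, the gene of ChREBP, lies on chromosome 5 (135089890 to 135138382, plus strand) and was lower in every female statin liver than in any female chow liver. The levels were 182, 257 and 199 CPM on chow and 177, 117 and 128 CPM with statin. The log2 fold change of -0.59 ± 0.19 (95% interval -1.0 to -0.18) had an unadjusted p of 0.00827 and an adjusted p of 0.261, so it was not called. With the length trend as a covariate, chosen after seeing the data, it was called (-0.60, adjusted p = 0.0461). The nearest livers of the groups held 182 and 177 CPM. Males held 259.6, 183 and 207 CPM on chow and 170.0, 174 and 177 CPM with statin, again without overlap (-0.32 ± 0.19, adjusted p = 1.00). The difference between the sexes in that response was -0.27 ± 0.27. Females and males differed by -0.03 ± 0.19 on chow. One of its promoter windows held the SREBP element 136 bases before the start site, the single match to that motif among the 17 windows of the 10 genes.

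Nr1h3 lies on chromosome 2 (91184061 to 91202834, minus strand) and stayed within the narrowest bounds of the 3 factor genes. The levels were 96.5, 121 and 124 CPM in female chow livers and 145, 97.3 and 143 CPM in female statin livers. Male chow livers held 114, 108 and 92.0 CPM, and male statin livers 90.7, 116 and 138 CPM. All groups overlapped. Statin minus chow, on the log2 scale, was 0.18 ± 0.19 for females and 0.14 ± 0.19 for males, with 95% intervals of -0.24 to 0.59 and -0.28 to 0.55.

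Scap codes for the escort protein of SREBP and lies on chromosome 9 (110333288 to 110384950, plus strand). In females on chow it stood at 272, 213 and 185 CPM and in males on chow at 163, 155 and 177 CPM. These did not overlap, but the difference of 0.44 ± 0.21 log2 units was not called (adjusted p = 0.217). With statin the levels were 202, 241 and 133 CPM in females and 180.4, 138 and 163 CPM in males. The log2 fold changes were -0.22 ± 0.21 and -0.04 ± 0.21, and statin and chow livers overlapped in both sexes.

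Insig1, which codes for a retention protein and is itself a well known SREBP target, lies on chromosome 5 (28071363 to 28078662, plus strand). Its levels in female chow livers were 441, 564 and 376 CPM, all above the male chow livers with 272, 229 and 295 CPM. The difference was 0.80 ± 0.22 log2 units, or 1.74-fold (adjusted p = 0.0406). With statin, females held 468, 324 and 296 CPM and males 303, 225 and 352 CPM, so the sexes overlapped (0.31 ± 0.22, adjusted p = 0.522). Statin minus chow was -0.34 ± 0.22 for females and 0.14 ± 0.22 for males, neither called, and the difference between those values was -0.49 ± 0.31 (adjusted p = 0.820). The female to male difference on chow was near the threshold: its adjusted p was 0.0605 with library totals in place of TMM and 0.0689 with the replicate number as a block. It also missed the threshold without female chow replicate 1 (0.0904) or 2 (0.170), and without male chow replicate 1 (0.112), 2 (0.138) or 3 (0.0778). The Insig1 promoter (chr5:28071162-28071461, strand +) held an E-box 101 bases before the start site and a CCAAT on the other strand.
Insig1: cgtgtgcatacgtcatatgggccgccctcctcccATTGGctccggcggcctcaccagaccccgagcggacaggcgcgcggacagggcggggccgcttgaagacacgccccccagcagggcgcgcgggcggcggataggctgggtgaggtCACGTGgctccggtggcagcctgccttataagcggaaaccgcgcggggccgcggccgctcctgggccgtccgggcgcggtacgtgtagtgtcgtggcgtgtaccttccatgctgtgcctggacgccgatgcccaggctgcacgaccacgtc

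Insig2, the second retention protein, lies on chromosome 1 (121304353 to 121332589, minus strand). Female chow livers held 166, 146 and 107.5 CPM, and female statin livers 130.4, 68.2 and 84.2 CPM, with replicate 1 of the statin group inside the chow range. The change was -0.57 ± 0.28 (unadjusted p = 0.0656, adjusted p = 0.529). In males the levels were 185, 129.7 and 91.5 CPM on chow and 124, 129.7 and 97.5 CPM with statin, a change of -0.21 ± 0.28. On chow, Insig2 differed between females and males by 0.05 ± 0.28 (95% interval -0.56 to 0.66), which was not called.

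Thrsp, also called Spot 14, is a small nuclear protein that promotes fatty acid synthesis and is induced by thyroid hormone and carbohydrate. The gene lies on chromosome 7 (97412938 to 97417730, minus strand). Female chow livers held 1249.7, 1145 and 1228 CPM, a range of 1.09-fold. Female statin livers were spread over 3.75-fold, at 947, 384 and 253 CPM, and each was below every female chow liver. The change of -1.19 ± 0.50 log2 units (95% interval -2.28 to -0.11) had an unadjusted p of 0.0334 and an adjusted p of 0.415. It was -1.91 without female statin replicate 1, the highest of that group, and was not called there either. Males held 427, 297 and 321 CPM on chow and 192, 456 and 829 CPM with statin, which overlapped (0.50 ± 0.49). Without male statin replicate 3, the highest of that group, the male value was -0.10. The SD was 55.4 CPM on chow and 369 CPM with statin in females, and 69.4 and 320.1 CPM in males; these SDs were not compared by a test. On chow, females exceeded males by 1.79 ± 0.51 log2 units, or 3.47-fold (adjusted p = 0.0417), whereas under statin the difference was 0.10 ± 0.49. The call on chow was lost when any 1 of the 6 chow livers was left out (adjusted p 0.0920 to 0.128), without male statin replicate 2 (0.0606), with library totals (0.0541) and with the block (0.0741). The difference between the sexes in the statin response was -1.69 ± 0.70 (unadjusted p = 0.0321, adjusted p = 0.557). The promoter (chr7:97417501-97417800, strand -) held CCAAT 79 and 52 bases before the start site, once on each strand.
Thrsp: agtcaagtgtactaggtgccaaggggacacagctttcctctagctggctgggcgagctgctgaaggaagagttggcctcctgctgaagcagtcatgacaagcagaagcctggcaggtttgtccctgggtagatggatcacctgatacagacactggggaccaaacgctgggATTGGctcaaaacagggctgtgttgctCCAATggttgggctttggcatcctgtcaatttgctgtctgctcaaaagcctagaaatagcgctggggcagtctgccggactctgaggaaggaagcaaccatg

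Mid1ip1, a relative of Thrsp whose protein promotes the assembly of acetyl-CoA carboxylase, lies on the X chromosome (10715013 to 10719690, plus strand). Female chow livers held 58.5, 65.8 and 61.0 CPM, and all 3 were above the female statin livers at 34.9, 52.9 and 31.5 CPM. The change of -0.63 ± 0.20 (95% interval -1.06 to -0.21) had the lowest p-value of the 10 genes in this comparison (unadjusted p = 0.00704, adjusted p = 0.248). Without female statin replicate 2, the highest of the 3, Mid1ip1 was called (-0.90, adjusted p = 0.0399). Males held 40.0, 47.8 and 49.6 CPM on chow and 47.9, 33.9 and 48.5 CPM with statin (-0.08 ± 0.20). Females exceeded males on chow in every liver (0.43 ± 0.20, adjusted p = 0.195), and this was called when the chow groups were fitted alone (adjusted p = 0.0274).

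Pnpla3 codes for a lipid droplet protein, and both SREBP-1c and ChREBP are described as its activators. It lies on chromosome 15 (84167837 to 84187236, plus strand) and spanned the widest range of the 10 genes. Female chow livers held 49.3, 61.7 and 28.5 CPM, while male chow livers held 2.74, 1.14 and 1.18 CPM. The difference was 4.79 ± 1.04 log2 units, or 27.6-fold (95% interval 2.52 to 7.06 log2 units, adjusted p = 0.0126). Female statin livers held 27.7, 15.6 and 0.555 CPM, each below every female chow liver, and the last of these was lower than any male liver. Male statin livers held 1.06, 4.56 and 7.64 CPM. Statin minus chow was -1.67 ± 0.89 for females (adjusted p = 0.579) and 1.40 ± 0.97 for males (adjusted p = 1.00), and neither was called. With 1 liver left out, the male value ran from 0.75 to 1.93. Without female statin replicate 3 the female value was -1.09, and without replicate 1 it was -2.50. The sexes differed in this value by -3.06 ± 1.31 (unadjusted p = 0.0376, adjusted p = 0.577). The sex difference on chow missed the threshold without male chow replicate 2 (adjusted p = 0.0577) or 3 (0.0623), and the gene does not pass a filter of 10 CPM in 6 livers. Its promoter (chr15:84167566-84167865, strand +) held 1 CCAAT, on the other strand 99 bases before the start site.
Pnpla3: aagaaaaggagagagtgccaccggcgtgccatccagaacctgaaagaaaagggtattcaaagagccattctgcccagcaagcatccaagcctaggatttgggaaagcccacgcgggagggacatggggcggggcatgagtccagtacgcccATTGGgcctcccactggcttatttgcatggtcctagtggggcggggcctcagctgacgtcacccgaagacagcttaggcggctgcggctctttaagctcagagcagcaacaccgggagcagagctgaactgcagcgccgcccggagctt

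Txnip codes for an arrestin-like protein that binds thioredoxin and restrains glucose uptake, and it is one of the best known targets of ChREBP. The gene lies on chromosome 3 (96557957 to 96561883, plus strand). Female livers held 172, 156 and 146 CPM on chow and 194, 171 and 185 CPM with statin. Male livers held 85.6, 97.3 and 85.1 CPM on chow and 82.1, 80.9 and 84.6 CPM with statin. Every female liver was above every male liver. The female to male difference was 0.82 ± 0.11 log2 units on chow, or 1.77-fold (adjusted p = 0.000745), and 1.15 ± 0.11 under statin, or 2.22-fold (adjusted p = 5.07e-05). Both calls were kept in every alternative run, with adjusted p-values of at most 0.00709 on chow and 0.00558 under statin. Statin minus chow was 0.22 ± 0.11 for females (unadjusted p = 0.0792) and -0.11 ± 0.11 for males, and the difference between these was 0.33 ± 0.16 (adjusted p = 0.664). Txnip had the smallest SE of the 10 genes in these comparisons. Gm15441, which overlaps Txnip on the other strand, held at most 0.737 CPM. The Txnip promoter (chr3:96557707-96558006, strand +) held the carbohydrate response element 85 bases before the start site, the single match among the 17 windows of the 10 genes, and 2 CCAAT matches upstream of it.
Txnip: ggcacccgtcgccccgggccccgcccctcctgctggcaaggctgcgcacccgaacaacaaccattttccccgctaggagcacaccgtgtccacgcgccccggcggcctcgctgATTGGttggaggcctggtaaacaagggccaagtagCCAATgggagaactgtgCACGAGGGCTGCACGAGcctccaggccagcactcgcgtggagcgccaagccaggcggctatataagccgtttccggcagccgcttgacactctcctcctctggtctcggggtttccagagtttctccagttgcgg

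**Figure D3:**
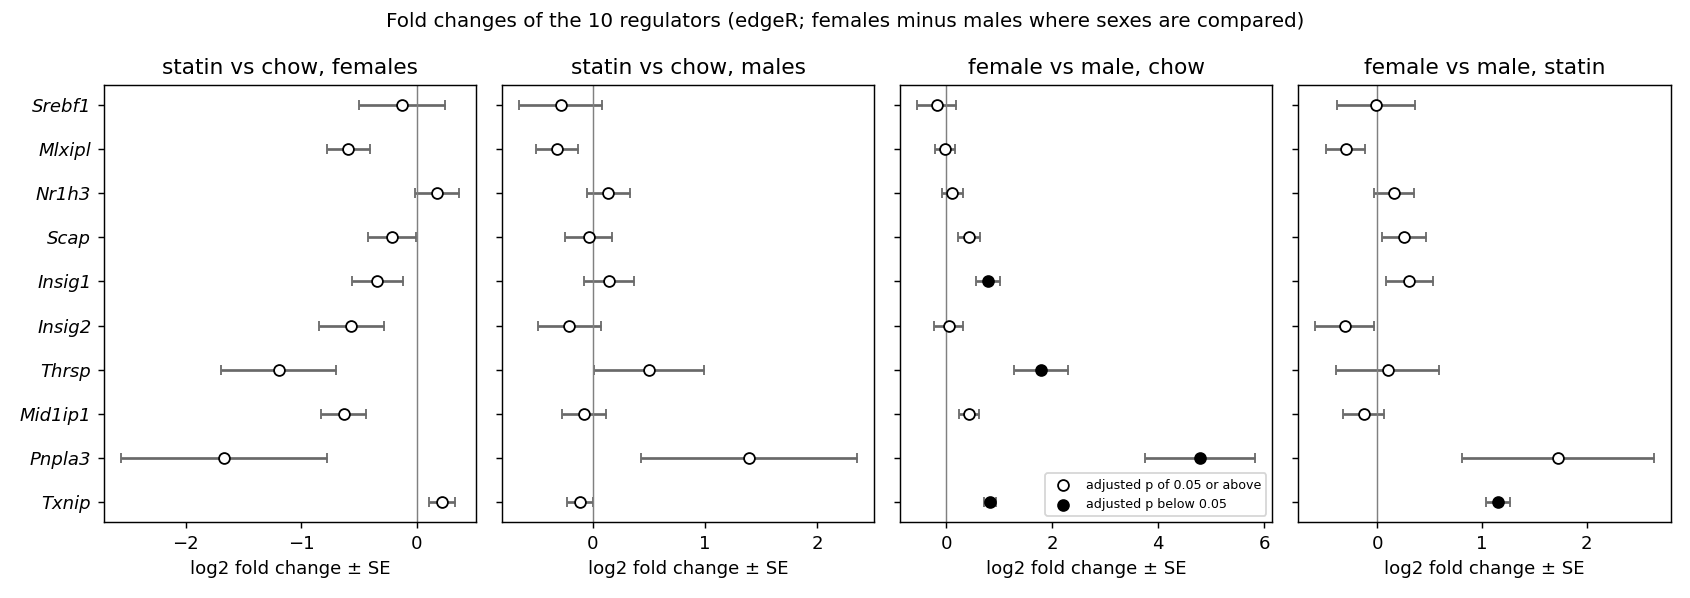
Log2 fold change ± SE of each of the 10 genes from edgeR in 4 comparisons. Filled points have an adjusted p below 0.05: Insig1, Thrsp, Pnpla3 and Txnip between the sexes on chow, and Txnip between the sexes under statin.

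As a list, 8 of the 10 genes had a negative fold change with statin in females and 6 in males. The medians were -0.46 and -0.06, beside 0.01 and 0.00 over all genes tested. Groups did not overlap for 4 of the 10 in females, all lower with statin (Mlxipl, Thrsp, Mid1ip1 and Pnpla3), where 5.97% of all genes were lower without overlap. In males this held for Mlxipl and Txnip, both lower, where the share of all genes was 4.30%. None of the 10 was without overlap in both sexes in opposite directions, which held for 1.12% of all genes. No difference between the sexes in the statin response was called by edgeR for the 10 genes or for any gene (a share of 0), and 2 of the 10 had an unadjusted p below 0.05, both negative (Thrsp and Pnpla3), against 8.01% of all genes and 3.39% in that direction. DESeq2 (1.02% of all genes called) and limma (0) also called 0 of the 10. Between the sexes on chow the median of the 10 was 0.44, beside -0.01 over all genes, and 6 of the 10 were higher in females without overlap, against 18.5% of all genes. Under statin the median was 0.13, and Txnip alone did not overlap, where 11.1% of all genes were higher in females without overlap. These comparisons share livers: the female chow livers enter the statin comparison in females, the interaction and the sex comparison on chow.

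Between statin and chow in females, lymphocyte marker sums (3 of 3 measured) did not overlap, at 0.779 to 1.83 CPM on chow and 2.35 to 2.94 CPM with statin. All 4 stellate cell markers had negative fold changes (median -0.32), of which 0 were called by edgeR and 1 had an unadjusted p below 0.05, against 10.5% of all genes. The sums of the other 8 marker lists, stellate cells included, overlapped between the diets in females, and all 9 did in males. The part of these markers in the female values of Mlxipl, Thrsp, Mid1ip1 and Pnpla3 was not tested.

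Between the sexes, the summed markers of several liver cells were higher in females on chow. Kupffer cell markers (5 genes, all measured in every liver) summed to 423 to 520.2 CPM in female chow and 223 to 337 CPM in male chow livers, liver endothelium markers (4 of 4) to 178 to 185 and 111 to 147 CPM, and stellate cell markers (4 of 4) to 268 to 327 and 173 to 189 CPM. Under statin the same sums were 373 to 645 and 223 to 274 CPM, 154 to 201 and 120 to 143 CPM, and 211 to 297 and 169 to 224 CPM. Under statin the stellate sums overlapped between the sexes and the other 2 did not. Cholangiocyte markers (4 of 4) overlapped in both diets, at 4.51 to 9.29 CPM in females and 4.32 to 5.36 CPM in males on chow, and at 2.38 to 8.10 and 3.87 to 5.32 CPM under statin. Hepatocyte markers overlapped on chow, with 92552 to 125803 CPM in females and 72013 to 121568 CPM in males, but not under statin, with 110905 to 148682 and 76365 to 87848 CPM. Of the 5 hepatocyte markers, 2 were called lower in females on chow and 1 under statin (edgeR), against 4.49% and 1.90% of all genes. Red cell markers (4 of 4) were at 153.7 to 169.9 CPM in females and 132 to 153.5 CPM in males on chow, and overlapped under statin. Pancreas markers were lower in females, at 7.36 to 8.17 against 9.64 to 14.7 CPM on chow and 5.63 to 9.74 against 11.96 to 16.1 CPM under statin, with 1 or 2 of 3 measured and Pnlip, Cpa1 or both at 0 in every liver. Adipocyte markers summed to at most 0.0537 CPM in females and to 0.164 to 2.53 CPM in males. Lymphocyte sums overlapped between the sexes in both diets. The part of these markers in the sex differences of Txnip, Insig1, Thrsp and Pnpla3 was not tested.

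Per kilobase of exon (all exons of a gene merged), Thrsp had the highest mean level over the 12 livers at 294 ± 186 CPM per kb (SD), then Insig1 at 112 ± 32.9 and Srebf1 at 56.8 ± 18.5. Nr1h3 (45.9 ± 7.74), Txnip (41.1 ± 14.8), Insig2 (35.0 ± 9.78), Mlxipl (33.6 ± 7.65), Scap (24.9 ± 5.53) and Mid1ip1 (22.4 ± 5.17) followed, and Pnpla3 was lowest (10.9 ± 13.4). The ranges of mean ± SD overlapped between neighbours in this order, except between Insig1 and Srebf1. The order of the middle genes depended on the length used. By longest transcript, Nr1h3 was at 58.2, Mlxipl at 51.3, Txnip at 45.4, Insig2 at 45.1, Scap at 43.8 and Mid1ip1 at 23.6 CPM per kb. It also differed by group: by merged exons Txnip was at 58.8 ± 3.70 CPM per kb in female statin livers, where Srebf1 was at 52.5 ± 28.3, and at 28.6 ± 2.21 in male chow livers, where Mlxipl was at 39.1 ± 7.09 and Insig2 at 38.9 ± 13.5. In male chow livers Pnpla3 was at 1.09 ± 0.589 CPM per kb, against 30.0 ± 10.8 in female chow livers, where it was not the lowest of the 10. By total level, Thrsp was at percentile 98.4 of the genes tested, Insig1 at 97.0, Srebf1 at 96.7 and Pnpla3 at 49.9.

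The values of 6 lists of genes that surround the 10 were read from the same fit. Of 13 fatty acid synthesis genes, 9 were called higher in females than in males on chow and 0 lower, against 5.96% of all genes called higher, with a median log2 difference of 2.36. They included Elovl6, which elongates palmitate (4.03 ± 0.61, adjusted p = 0.00164), Fasn, the fatty acid synthase (3.54 ± 0.59, 0.00285), Acaca, an acetyl-CoA carboxylase (3.10 ± 0.48, 0.00171), and Acly, which makes cytosolic acetyl-CoA (3.01 ± 0.46, 0.00157). Leaving out 1 liver gave between 5 called genes (without male chow replicate 2) and 10. Under statin 0 of the 13 were called between the sexes by edgeR, where 6.28% of all genes were, and the median difference was 0.40. With 1 liver left out, 0 to 5 of the 13 were called higher in females under statin. With statin 0 of the 13 were called in females and 0 in males by edgeR, DESeq2 calling 3 lower in females (0.936% of all genes), and 9 were lower in females at an unadjusted p below 0.05, against 4.56% of all genes. The median was -1.14 in females beside 0.40 in males. Liver by liver, all 13 were highest in female chow replicate 1 among the female chow livers. Among the female statin livers, all 13 were lowest in replicate 3. That liver also held the lowest Srebf1, Scap, Insig1, Thrsp, Mid1ip1 and Pnpla3 of its group, whereas Mlxipl, Nr1h3, Insig2 and Txnip were lowest in replicate 2.

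Of 12 ChREBP partners and targets, 6 were called higher in females on chow and 0 lower (5.96% of all genes were called higher), with a median of 0.88. They included Klf10 (1.5 ± 0.25), Pklr, the liver pyruvate kinase (1.35 ± 0.32), Tkfc (1.18 ± 0.19), Khk, the fructokinase (1.17 ± 0.28), and Arrdc4 (0.73 ± 0.16). Without male chow replicate 3 this fell to 3. Arrdc4, an arrestin-like relative of Txnip, was also called under statin (0.77 ± 0.16, adjusted p = 0.0151), as was Fgf21 (1.5 ± 0.33, 0.0177), a secreted hormone. Fgf21 was at 2.99 ± 0.741 CPM (SD, n = 3) in female and 1.05 ± 0.128 CPM in male statin livers, near the filter of 1 CPM. With statin 5 of the 12 were lower in females and 1 was higher at an unadjusted p below 0.05, where 10.5% of all genes passed, and 0 were called in either sex by edgeR. DESeq2 called 2 of the 12 lower and 1 higher in females, against 2.26% of all genes called.

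The remaining lists held fewer calls. Of 12 genes of SREBP processing, Lpin1, a phosphatidate phosphatase, was the 1 gene called on chow (2.66 ± 0.54, adjusted p = 0.00813), where 10.4% of all genes were called, and the list median was 0.02. Srebf2, the gene of SREBP-2, had 64.9 ± 10.8 CPM (SD, n = 3) on chow in females, beside 56.7 ± 9.22 CPM in males. Under statin it had 72.4 ± 12.5 and 52.6 ± 9.15 CPM, a difference of 0.46 ± 0.18 log2 units that was not called (unadjusted p = 0.0277, adjusted p = 0.183). Of 17 cholesterol synthesis and uptake targets of SREBP-2, 2 were called higher in females on chow, against 5.96% of all genes. One was Sqle, the squalene epoxidase (1.68 ± 0.44, adjusted p = 0.0302). The count ran from 1 to 6 under other settings. Those settings called from 771 (above 10 CPM, with fewer genes tested) to 3213 genes (length trend as a covariate) in this comparison, beside 1250 in the main fit. Leaving out female chow replicate 1 or 2 or male chow replicate 1 or 2 left 0 of the 17 called, and leaving out replicate 3 of either chow group left 1. With statin 0 of these 17 were called in either sex by edgeR, where 1 had an unadjusted p below 0.05 in females and 0 in males, against 10.5% and 1.96% of all genes. Of 11 LXR partners and targets, Cyp7a1, the rate-limiting enzyme of bile acid synthesis, was called lower in females on chow (-1.90 ± 0.48, adjusted p = 0.0250), and Pltp higher in females under statin (1.22 ± 0.32, 0.0449). Each was the 1 call of the list, beside 10.4% and 6.28% of all genes called. With statin 0 of the 11 were called by edgeR in females or males, where 0.100% and 0 of all genes were called. In females Cyp7a1 was higher (2.45 ± 0.48, adjusted p = 0.0951) and Nr1h2 lower (-0.34 ± 0.10, 0.218) with statin. These 2 had an unadjusted p below 0.05, against 10.5% of all genes. Of 8 genes listed for insulin signalling, Igfbp1 among them, 0 were called in the 4 comparisons by edgeR, and at most 2 under the other settings. Those settings differed widely in all genes called, from 771 to 3213 between the sexes on chow. The count of at most 2 was therefore not set against a share of all genes, and nothing is drawn from it. At an unadjusted p below 0.05, Igfbp1 alone passed between the sexes on chow, where 24.9% of all genes passed, and 3 of the 8 passed under statin, where 19.4% did.

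**Figure D4:**
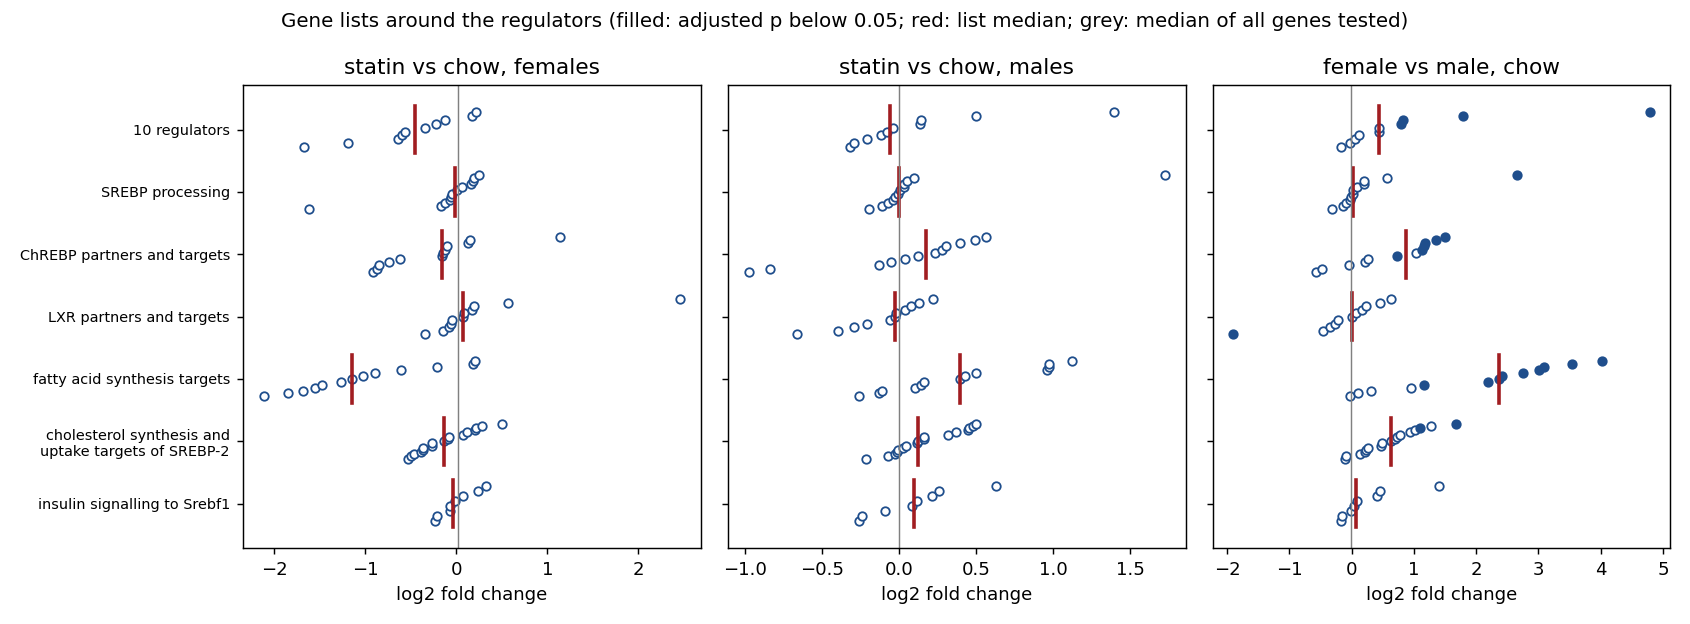
Log2 fold changes of the 10 regulators and of 6 gene lists in 3 comparisons, 1 point a gene. Filled points have an adjusted p below 0.05, red bars are list medians and the grey line is the median of all genes tested. Calls appear only between the sexes on chow, with 9 of 13 fatty acid synthesis genes and 6 of 12 ChREBP partners and targets called higher in females.

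The genes whose pattern over the 12 livers was most like that of a member were sought among 7639 genes, by the root mean square difference of log2(CPM + 1) after each gene's mean was removed. Srebf1, whose own root mean square deviation was 0.46, was nearest to Myo10 and Dclk3 (both 0.25), then Zfyve26, Dynll2 and Foxk1 (0.26 to 0.27). Mlxipl (0.32) was nearest to Psmd4 (0.17), then Snrpd3, Jpt2, Coq8a and Psmc4 (0.18). Thrsp (0.92) was nearest to Pmvk (0.39), an enzyme of the mevalonate pathway, then Acat2 (0.40), Rdh11 and Rdh16 (both 0.42) and 1810008I18Rik (0.42). The measure is a description over 12 livers that share depth and length trends.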

How the data were processed

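RNA from 12 livers was sequenced as strand-specific poly(A) libraries. Per the labels the authors aligned reads with STAR 2.4.1a to GRCm38 and counted them on genes with HTSeq; edgeR 3.28.1 is also named. The authors deposited CPM values (counts divided by each library's total) for all genes, and a table described as TMM-normalized that holds raw counts: 100% of the CPM values were whole reads within 0.01, and 0 counts differed from them. The count table keeps genes above 1 CPM in at least 6 livers. The 10 genes and all lists were chosen with earlier results of these data known.

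Counts were fitted with edgeR 4.0.16 (TMM, 4 groups, no covariate, two-sided, Benjamini-Hochberg over 11968 genes; SE is the absolute log2 fold change over the square root of F; 95% intervals use 8 plus 4.14 degrees of freedom). Libraries of a group are labelled as separate livers, so p-values measure a spread between animals. That spread was pooled over the 4 groups of 3 livers and was not estimated from the 2 groups of a comparison. The genes named are the 10, up to 4 genes of each list and comparison by p-value, and the 5 nearest in pattern to Srebf1, Mlxipl and Thrsp. For ChREBP genes more than 4 calls are named, which was decided after their values were seen. Some genes of the lists are counted but not reported by name here. Positions are from GENCODE vM21 (GRCm38). Alternatives were DESeq2 1.42.0, limma 3.58.1 with log2(CPM + 1), other scalings and filters, 2 groups alone, a replicate block, leaving out each liver, and, chosen after seeing the data, the length trend as a covariate and list counts under each setting. Scripts were tested on simulated data. R 4.3.3, Python 3.11.15 and scipy 1.17.1 were used.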

Additional observations from a re-analysis of the deposited data

Results flagged for a closer look

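Of the 73 genes in the lists around the 10 regulators, 5 lay in opposite directions from chow in statin-fed females and males, with no overlap between statin and chow livers in either sex, as did 1.12% of all 11968 genes tested. None of these sex differences passed the adjustment over all genes (edgeR). Lpin1 was lower with statin in every female liver and higher in every male liver, a difference between the sexes of -3.34 ± 0.73 log2 units (adjusted p = 0.259). Elovl6 (-2.52 ± 0.78, adjusted p = 0.377) and Me1, the cytosolic malic enzyme (-2.39 ± 0.72, 0.363), had the same order. Fgf21 (1.98 ± 0.46, adjusted p = 0.277) and Cyp7a1 (3.11 ± 0.67, 0.240) were higher in statin-fed females and lower in statin-fed males. Fgf21 was low in every group, with means of 1.35 and 2.99 CPM on chow and statin in females. In males its means were 1.88 and 1.05 CPM. Cyp7a1 was widely spread in female statin livers, at 305 ± 273 CPM (SD, n = 3), beside 55.7 ± 10.3 CPM in female chow livers. Of the 10 regulators, 0 lay in opposite directions with no overlap in either sex, beside the same share of 1.12%.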

How the results depend on the processing

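Of 435 fold changes of the 10 genes recomputed under other settings, 425 kept direction and side of the threshold, and of 600 with 1 liver left out, 555 did. Most of these values were not called to begin with, so the side they kept was that of no call. Between the sexes on chow, where 4 of the 10 were called, 14 of 120 values with 1 liver left out lost the call. Genes called (12 in females with statin, 0 in males, 0 for the interaction, 1250 between the sexes on chow, 751 under statin) became 270, 4, 122, 1946 and 1284 with DESeq2, and 421 (females), 37 (interaction), 3213 and 2248 (sexes) with the length trend as a covariate, an alternative chosen after seeing the data that also called Mlxipl, 1 of the 10, in females. With no filter 148 (females) and 103 (interaction) were called. Above 10 CPM 2 were called in females, 771 and 356 between the sexes. With 2 groups alone the counts were 0, 2151 and 292. The calls of the 10 on chow fell from 4 to 2 with library totals and with the replicate block. Same-numbered livers are different mice and did not deviate together (mean r -0.11 over 18 pairs, 0.06 for other numbers); with the block 5 genes were called in females. Leaving out 1 liver gave 0 to 75 calls in females, 0 to 14 for the interaction, 635 to 1586 and 378 to 743 between the sexes, and of the 10 genes 0 to 1 in females and 1 to 4 between the sexes on chow.

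Of the values that changed sign, the one farthest from 0 was Thrsp in males (0.50). Nr1h3's interaction was -0.017 with library totals; above 10 CPM Mlxipl was 0.022 between the sexes on chow and Srebf1 0.040 under statin, and 0.039 with the length covariate. With 1 liver left out the ranges in females were -0.66 to 0.17 for Srebf1 and -0.41 to 0.0034 for Scap. In males they were -0.0089 to 0.30 for Insig1, -0.43 to 0.081 for Insig2, -0.17 to 0.074 for Mid1ip1, -0.019 to 0.28 for Nr1h3, -0.13 to 0.061 for Scap and -0.10 to 0.88 for Thrsp. For the interaction they were -0.10 to 0.19 for Nr1h3, -0.38 to 0.033 for Scap and -0.37 to 0.59 for Srebf1. Between the sexes on chow they were -0.17 to 0.34 for Insig2 and -0.20 to 0.12 for Mlxipl, and under statin -0.40 to 0.020 for Mid1ip1, -0.55 to 0.41 for Srebf1 and -0.64 to 0.70 for Thrsp. The lowest level of the 10 genes, Pnpla3 in female statin replicate 3, rested on 28 reads. With 3 livers a group, the 95% interval of Srebf1 reached 0.8 log2 units to either side of its value. The cause of the other shifts was not tested.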
